A study of Mus musculus with 13 samples.

Results

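The genes described here are 10 stress genes of the mouse: Hspa5, Xbp1, Ern1, Herpud1, Atf4, Atf3, Ddit3, Trib3, Asns and Chac1. They were taken by symbol from the deposited count and FPKM tables, where each has 1 row among 27141 genes. All 10 passed the filter on low counts that left 19884 genes for testing. The cells were damaged hepatocytes (dHeps), freed by collagenase perfusion from the livers of wild-type mice injured with carbon tetrachloride (CCl4), and cultured for 16 days in serum-free hepatocyte maintenance medium. DMSO cultures received only the solvent. 5C cultures received a cocktail of 5 compounds. These were Salidroside (S), a plant glycoside, forskolin (F), an activator of adenylate cyclase, ETC-1002 (E), which activates AMPK, GSK429286A (G), which inhibits ROCK, and CID755673 (C), which inhibits protein kinase D. The groups 5C-S, 5C-F, 5C-E, 5C-G and 5C-C received the cocktail without the compound named by the letter. Every group had 2 libraries, called A and B, except 5C-S with 1, so 13 libraries of 7 groups were analysed. The study's methods describe its replicates as biologically separate, but the labels do not say whether libraries of a group came from separate animals or from separate cultures of the same cells. The p-values measure the spread between libraries of a group, estimated over all groups in 1 fit and not only from the groups compared.

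Proteins that fold badly in the endoplasmic reticulum (ER) are sensed by membrane proteins, and the signalling that follows is called the unfolded protein response. Ern1 encodes one sensor, IRE1alpha, an RNase that splices the mRNA of the transcription factor Xbp1. Hspa5 encodes BiP, the main ER chaperone of the Hsp70 family, and Herpud1 a membrane protein of ER-associated degradation. Another sensor, PERK, phosphorylates the translation factor eIF2alpha, as do kinases that sense amino acid shortage, haem shortage and double-stranded RNA. This favours translation of the transcription factor ATF4, whose targets include the transcription factor genes Atf3 and Ddit3 (CHOP), the pseudokinase gene Trib3, asparagine synthetase (Asns) and Chac1, an enzyme that degrades glutathione. Hepatocytes carry a dense ER because they secrete plasma proteins. These tables count mRNA, so they do not show splicing of Xbp1, phosphorylation or protein levels.

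To show what the members share in sequence, the 250 bases before each gene's start in RefSeq (build GRCm38.p6) were searched on both strands for 4 motifs known from this pathway. All 10 genes had a window, and each window matched the GRCm39 genome exactly and once on its chromosome. The motifs were the ER stress element (ERSE, the letters CCAAT and CCACG with 9 bases between them), ERSE-II (ATTGG and CCACG with 1 base between them), the core of the C/EBP-ATF response element (CARE, TGATGNAA) and the cyclic AMP response element (CRE, TGACGTCA). Of 32851 windows of this length, 0.113% held ERSE, 0.0304% ERSE-II, 3.45% the CARE core and 1.55% CRE. A match was found in 5 members, which are printed with the motif in capitals, from 20 bases before the first match to 20 bases after the last, or to the start. The windows of Xbp1, Ern1, Atf4, Ddit3 and Trib3 held none of these letters, and RefSeq's start need not be the one used in these cells. In Hspa5 (chr2:34662017-34662075, plus strand) ERSE lay at bases -65 to -47, counted from the start.
Hspa5: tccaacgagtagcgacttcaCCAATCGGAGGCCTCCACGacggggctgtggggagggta
In Herpud1 (chr8:95112925-95113035, plus strand) a CARE core on the opposite strand at -112 to -105 was followed by ERSE-II at -52 to -42.
Herpud1: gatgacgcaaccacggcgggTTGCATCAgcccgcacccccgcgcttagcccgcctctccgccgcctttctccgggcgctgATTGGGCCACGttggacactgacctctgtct
In Asns (chr6:7693210-7693252, minus strand) the CARE core lay at -23 to -16.
Asns: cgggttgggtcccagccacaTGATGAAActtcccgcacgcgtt
In Atf3 (chr1:190915613-190915660, minus strand) it lay on the opposite strand at -110 to -103.
Atf3: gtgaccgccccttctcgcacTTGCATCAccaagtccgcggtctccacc
In Chac1 (chr2:119181510-119181557, plus strand) it also lay on the opposite strand, at -193 to -186.
Chac1: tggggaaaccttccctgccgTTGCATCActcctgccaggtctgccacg
The gene with the largest fold change, Ddit3, is among those without a match in its window. That window (chr10:127126412-127126661, plus strand) lies inside the GENCODE gene, which starts at base 127124268. Bases farther upstream were not searched.

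Library totals ran from 30195867 to 45491932 counts, and no member had fewer than 160 counts in a library. The lowest level belonged to Atf3, so depth limited none of the members to a few reads. Hepatocyte markers (Alb, Ttr, Hnf4a and 7 others) were detected in every library, with a summed level of 11240 to 12540 FPKM in DMSO and 11610 to 11650 in 5C. Their sum was 7106 to 8449 in 5C-G, 4935 to 5260 in 5C-C, 3307 to 3857 in 5C-E, 17700 to 22170 in 5C-F and 7574 in 5C-S. The 10 macrophage markers were also present, with 2515 to 2525 FPKM in DMSO, 274 to 301 in 5C, 3084 to 4836 in 5C-G, 712 to 1222 in 5C-C, 429 to 554 in 5C-E, 899 to 1201 in 5C-F and 366 in 5C-S. Cholangiocyte markers summed to 2598 to 2958 FPKM in DMSO, 1639 to 1977 in 5C, 3166 to 3423 in 5C-F and 1456 to 2437 in the other removals. Stellate cell and fibroblast markers were at 1277 to 1336 FPKM in DMSO, 1470 to 1472 in 5C, 1963 to 2355 in 5C-G, 901 to 988 in 5C-F and 1382 to 1816 in the other removals. The 7 liver endothelial markers found summed to 78.2 to 89.7 FPKM in DMSO, 12.7 to 14.1 in 5C, 41.6 to 45.3 in 5C-G and 9.69 to 28.7 in the other removals. In bulk RNA, fewer cells of a type and less RNA per cell cannot be told apart, and the part of these shifts in the results was not tested. Fold changes against 5C also followed the share of G and C bases (GC content) of the genes. Across protein-coding genes, which are not independent replicates, Spearman's rho was 0.44 in 5C-C, 0.38 in 5C-E, 0.36 in 5C-G and 0.28 in 5C-F, and -0.22 in 5C against DMSO. Libraries A and B of the same group also differed along GC content. The rho of B minus A was 0.43 in 5C-E, 0.41 in 5C-F, 0.32 in 5C-G and 0.2 in 5C-C. In DMSO it was -0.04 and in 5C 0.03. The trend thus varied between libraries of the same treatment too. Among the members, Chac1 (57.5% GC), Trib3 (57.3%) and Atf4 (56.7%) were the richest and Hspa5 (44.5%) and Asns (44.9%) the poorest. Values refitted with a GC and length offset, which takes out each library's trend over both, are therefore given where they change the call of a named gene. The exception is 7 chaperones in 5C-C against 5C, for which only a count is given.

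The members varied among the groups to different degrees. The edgeR test of any difference among the 6 replicated groups passed an adjusted p of 0.05 for 9 of the 10, where 45.6% of all genes tested passed. Ddit3 had the smallest adjusted p, 2.36e-06, and its highest group mean was 5.74 times its lowest. Hspa5 did not pass, with an adjusted p of 0.105 and a ratio of 1.36. Over the 7 group means of log2 CPM (counts scaled by library size), Pearson's r between Atf4, Atf3, Asns and Chac1 ran from 0.73 (Atf3 with Chac1) to 0.91 (Atf4 with Atf3). Trib3, another ATF4 target, had an r of 0.2 with Atf4, 0.26 with Atf3, 0.44 with Asns and 0.5 with Chac1. Ddit3 had an r of 0.84 with Hspa5, 0.79 with Xbp1, 0.77 with Trib3, 0.65 with Chac1, 0.51 with Asns, 0.44 with Atf4 and 0.35 with Atf3. Ern1 had an r of -0.85 with Xbp1 and -0.74 with Ddit3. These are descriptions over 7 points that share their libraries, made without the GC and length offset.

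**Figure D1:**
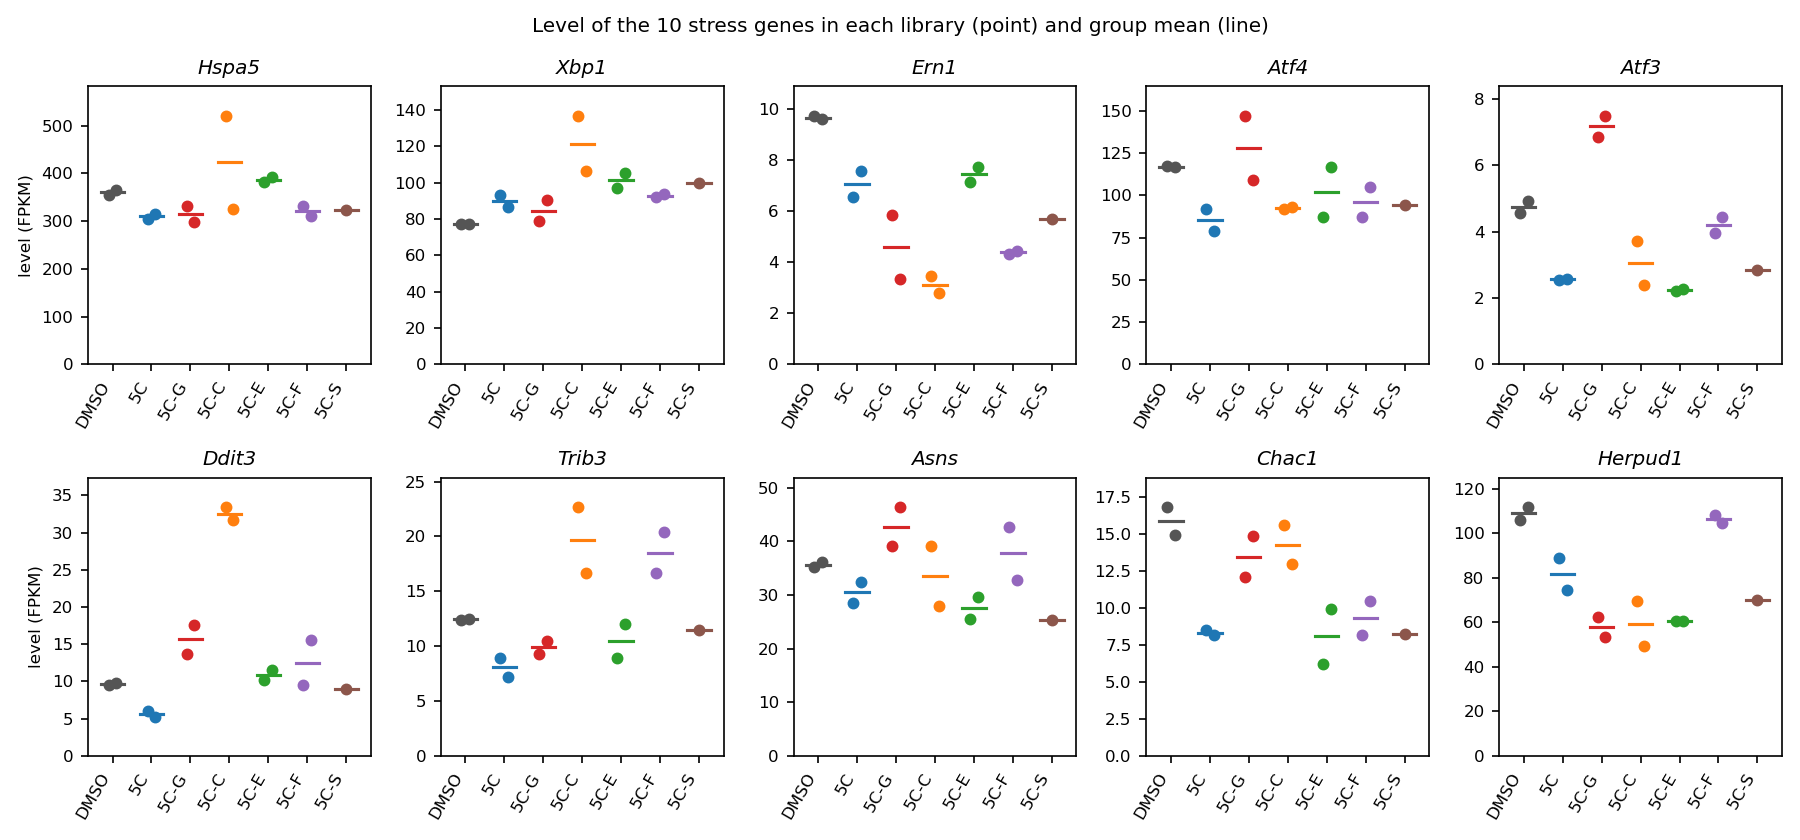
Level of each of the 10 genes (y axis, FPKM, from 0) in the 7 groups (x axis). Points are libraries and lines are group means. Ddit3 stands highest in both 5C-C libraries (33.4 and 31.7 FPKM), while Ern1 is lowest there (3.44 and 2.78).

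Among the genes of the ER folding arm, BiP mRNA was the most abundant per length, and its group means had the smallest ratio of highest to lowest. Hspa5 stood at 355 and 365 FPKM in DMSO, 304 and 316 in 5C, 333 and 297 in 5C-G, 381 and 391 in 5C-E, 331 and 312 in 5C-F and 322 in 5C-S. In 5C-C the libraries stood far apart, at 521 and 325 FPKM, and the lower one lay inside the range of 5C-G and 5C-F. In order of group means, 5C, 5C-G, 5C-F and 5C-S overlapped with their neighbours, and DMSO and then 5C-E stood above them. Xbp1 ran from 77.1 and 77.3 FPKM in DMSO to 137 and 106 in 5C-C, both of which lay above every other library. The other Xbp1 values lay between 78.7 and 105.5 FPKM.

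Ern1, the IRE1alpha sensor, went the other way. Its level was 9.72 and 9.58 FPKM in DMSO, 6.56 and 7.58 in 5C, 7.15 and 7.73 in 5C-E and 5.69 in 5C-S. It was 5.83 and 3.33 FPKM in 5C-G, 4.32 and 4.45 in 5C-F and 3.44 and 2.78 in 5C-C. Every culture with compounds lay below both DMSO libraries. Herpud1 split the groups differently, with 106 and 112 FPKM in DMSO and 108 and 105 in 5C-F, which overlapped. It stood at 88.8 and 74.7 FPKM in 5C, and at 49.2 to 70.1 FPKM in 5C-S, 5C-E, 5C-G and 5C-C.

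Among the genes of the ATF4 arm, Ddit3 had the widest range. Ddit3 (CHOP) was at 9.49 and 9.72 FPKM in DMSO, 6.07 and 5.26 in 5C, 13.7 and 17.6 in 5C-G, 33.4 and 31.7 in 5C-C, 10.2 and 11.5 in 5C-E, 9.53 and 15.5 in 5C-F and 9.03 in 5C-S. Both 5C libraries lay below every other library, both 5C-C libraries lay above, and 5C-E, 5C-F and 5C-G overlapped their neighbours in the order between them. Atf3 had another order, with 4.57 and 4.93 FPKM in DMSO, 2.55 and 2.58 in 5C, 6.85 and 7.50 in 5C-G, 3.73 and 2.40 in 5C-C, 2.22 and 2.27 in 5C-E, 3.96 and 4.43 in 5C-F and 2.86 in 5C-S. Its 2 highest libraries were those of 5C-G, and 5C-C overlapped with 5C-S. Trib3, which encodes a pseudokinase that binds AKT and ATF4, was at 12.4 and 12.5 FPKM in DMSO, 8.90 and 7.20 in 5C, 9.32 and 10.5 in 5C-G, 22.7 and 16.6 in 5C-C, 8.92 and 12.03 in 5C-E, 16.7 and 20.4 in 5C-F and 11.5 in 5C-S. The 5C-C and 5C-F libraries overlapped and lay above all others.

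Chac1, the glutathione-degrading enzyme, was highest in DMSO at 16.8 and 14.9 FPKM. It was at 8.46 and 8.15 FPKM in 5C, 12.1 and 14.8 in 5C-G, 15.6 and 12.96 in 5C-C, 6.19 and 9.93 in 5C-E, 8.16 and 10.4 in 5C-F and 8.20 in 5C-S. DMSO and 5C-C overlapped, as did 5C-E, 5C-S, 5C and 5C-F at the lower end. Atf4 mRNA ranged from 79.2 to 147 FPKM and Asns from 25.3 to 46.4 FPKM. The highest value of each came from a 5C-G library, and the groups overlapped with their neighbours in the order of Asns means from 5C-E upward.

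In the comparison of 5C with DMSO, which asks what the full cocktail changed, 9 of the 10 genes were lower in 5C, and Chac1 fell. A call here and in what follows is an adjusted p under 0.05 over all genes tested together with a log2 fold change beyond 1. Chac1 was 2.01-fold lower (log2 fold change -1.01 ± 0.25 SE, adjusted p = 0.019 in edgeR). Of all genes, 2.89% were called lower and 1.66% higher, against 1 and 0 of the 10 members. The Chac1 call stood at the threshold, since 9 of 11 alternative settings put it outside, among them the GC and length offset (-0.86) and each one that left out a DMSO or a 5C library (log2 fold change -1.09 to -0.85, adjusted p from 2.84e-05 to 0.202 over the alternatives). The adjusted p alone was passed by 3 members, all lower, and by 6.34% of all genes. Atf3 (-0.96 ± 0.27, adjusted p = 0.04) and Ddit3 (-0.84 ± 0.24, adjusted p = 0.0432) passed the adjusted p but not the fold. Leaving out any 1 library of the 2 groups left 1 in a group. Neither then passed the adjusted p, with log2 fold changes of -1 to -0.91 for Atf3 and -0.92 to -0.75 for Ddit3. With total counts as the only scaling neither passed it (0.0724 and 0.0792). Atf3 also missed it without a count filter (0.0521) and Ddit3 in limma (0.096). DESeq2 passed both (0.00998 and 0.013), and Atf4, Trib3 and Herpud1 too (0.0268, 0.0274 and 0.042). In the edgeR fit of only the 2 groups every member but Xbp1 passed it, from 2.84e-05 (Chac1) to 0.0204 (Asns). The median log2 fold change of the 10 was -0.52, beside 0.01 over all genes tested. Xbp1 was the exception in sign at 0.15 ± 0.17 (adjusted p = 0.742).

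The other genes of the pathway, 94 in 8 lists, were mostly lower in 5C than in DMSO by small amounts. Of these, 21 had a log2 fold change above 0, and the median was -0.21 beside 0.01 over all genes. In edgeR, 3 were called lower and 0 higher, beside the 2.89% and 1.66% of all genes given above, and 22 had an unadjusted p under 0.05. Counts at an unadjusted p, here and below, have no share of all genes beside them. They therefore show no trait particular to the lists or members. Of the 12 aminoacyl-tRNA synthetases 0 had a value above 0, with a median of -0.29, 2 had an unadjusted p under 0.05 in edgeR, and 0 were called by edgeR, DESeq2 or limma. Sdf2l1, a component of the BiP chaperone complex, went from 42.7 ± 1.53 to 20.4 ± 3.56 FPKM (SD, n = 2 each), or -1.14 on the log2 scale, with adjusted p = 0.00653 in edgeR. Fkbp2, an ER prolyl isomerase, was at 19.3 ± 0.993 FPKM in DMSO and 9.27 ± 0.258 in 5C (-1.13, adjusted p = 0.0309). Nupr1, a stress-induced chromatin protein, was at 20.1 ± 0.0251 FPKM in DMSO and 9.10 ± 1.81 in 5C (-1.22, adjusted p = 0.0116). With the GC and length offset only Nupr1 was called, while Sdf2l1 came to -0.99 and Fkbp2 to -0.98, and in limma Nupr1 and Fkbp2 were not called. Sdf2l1 lost its call without DMSO library B or 5C library A (nearest to 0 at -0.96), Nupr1 without either DMSO library or 5C library B (-1.04), and Fkbp2 without any 1 of the 4 libraries (-1.08). Macrophage, liver endothelial and cholangiocyte markers were lower in 5C than in DMSO, as given above, and their part in these changes was not tested.

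When the ROCK inhibitor was left out, Atf3 and Ddit3 rose. Atf3 was 3.08-fold higher in 5C-G than in 5C (log2 fold change 1.62 ± 0.27, adjusted p = 0.000427 in edgeR), and both 5C-G libraries exceeded every other library. Ddit3 was 3.06-fold higher (1.61 ± 0.24, adjusted p = 0.000155). Both calls held under all 11 alternatives, with log2 fold changes of 1.20 to 1.77 for Atf3 and 1.23 to 1.86 for Ddit3, and highest adjusted p of 0.012 and 0.00729. Of all genes, 7.47% were called higher and 5.64% lower, against 2 and 0 of the 10 members. The adjusted p alone was passed by 5 members, all higher, and by 25.6% of all genes. Atf4 (0.71 ± 0.18, adjusted p = 0.00739), Chac1 (0.84 ± 0.25, adjusted p = 0.0196) and Asns (0.63 ± 0.21, adjusted p = 0.0347) passed the adjusted p but not the fold. Without 5C library B none of the 3 passed it (adjusted p = 0.124, 0.132 and 0.109), and without 5C library A or 5C-G library B neither Chac1 (0.106 and 0.21) nor Asns (0.238 and 0.299) did. In limma all 3 missed it (0.0528, 0.0557 and 0.0948), as did Chac1 (0.0538) and Asns (0.089) with total counts as the only scaling, and Asns in the fit of only the 2 groups (0.0627). With the offset for GC content and length, Asns stayed at 0.68, while Atf4 came to 0.11 and Chac1 to 0.02, and Trib3 turned from 0.44 to -0.25. Without 5C-G library A Chac1 was called (1.06, adjusted p = 0.00673).

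The levels of Atf3 ran alongside those of macrophage markers. The group with the highest macrophage sum, 5C-G, was also the highest in Atf3, DMSO came next in both, and by group mean 5C, 5C-E and 5C-S were the 3 lowest in both. The 5C-C libraries did not keep this order between themselves, since the one with 1222 FPKM of macrophage markers had the lower Atf3, 2.40 FPKM. Ddit3 was highest in 5C-C, and Trib3 in 5C-C and 5C-F, whose macrophage sums lay in the middle of the range. Stellate and endothelial markers were also higher in 5C-G than in 5C, and hepatocyte markers lower. The part of RNA from other cells in the Atf3 and Ddit3 values was not tested.

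**Figure D2:**
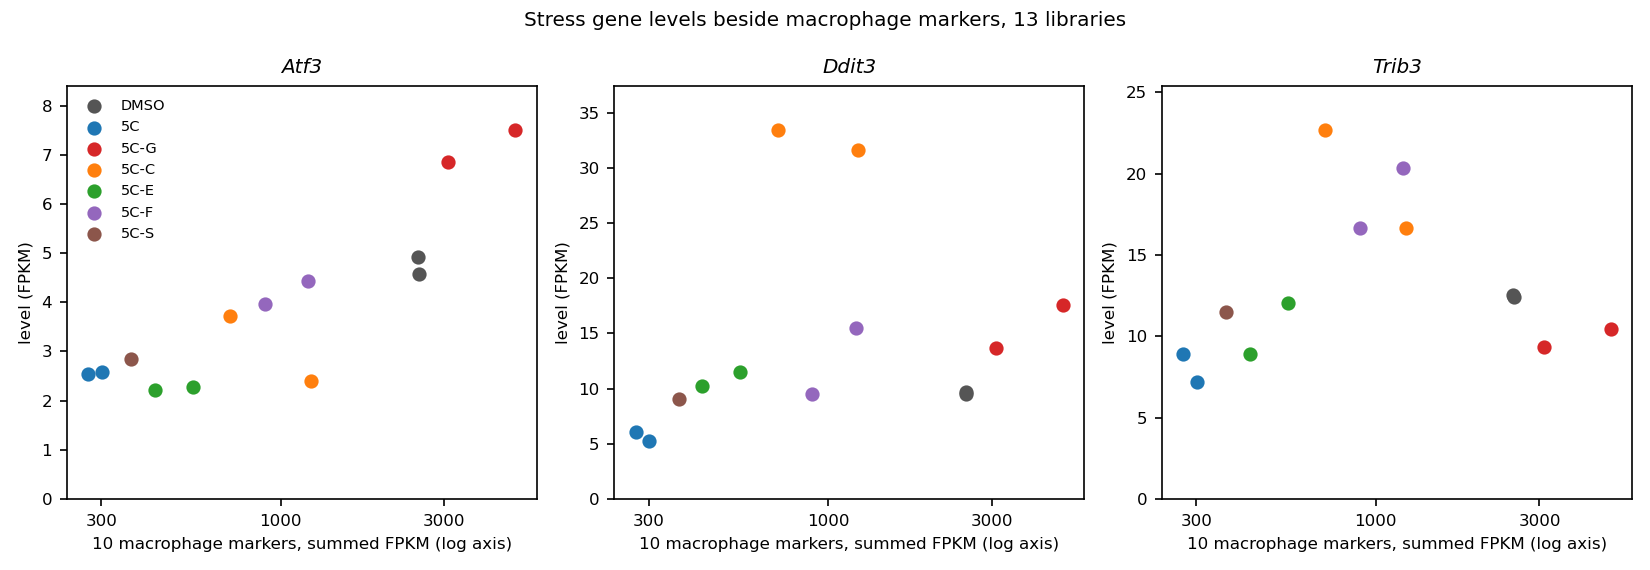
Level of Atf3, Ddit3 and Trib3 (y axes, FPKM, from 0) against the summed level of 10 macrophage markers (x axis, FPKM, log axis), 1 point per library, coloured by group. Atf3 is highest in the 5C-G libraries, which hold 3084 and 4836 FPKM of the markers, whereas Ddit3 is highest in the 5C-C libraries, which hold 712 and 1222.

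In 5C-G against 5C, 11 of the 94 other pathway genes rose and 4 fell, where 7.47% of all genes were called higher and 5.64% lower. The 15 called became 9 without 5C library B, 9 without 5C-G library B, 13 without 5C library A and 22 without 5C-G library A. The median log2 fold change was 0.21 beside -0.01 over all genes. Among ER chaperones and foldases, 3 of 18 rose, and 2 to 4 did when 1 library was left out. Fkbp2 stood at 40.5 ± 9.63 FPKM (SD, n = 2) against 9.27 ± 0.258 in 5C (log2 fold change 2.28, edgeR adjusted p = 6.92e-05), and Sdf2l1 at 57.5 ± 15.9 against 20.4 ± 3.56 (1.65, adjusted p = 0.000164). Ppp1r15a (GADD34), the inducible subunit that directs dephosphorylation of eIF2alpha, rose from 5.92 to 12.3 FPKM (1.20, adjusted p = 0.0041). Rnf5, a ubiquitin ligase of the ER membrane, had a log2 fold change of 1.27 (adjusted p = 0.0172). Refitted with the offset, Fkbp2 was still called at 1.45, but Sdf2l1 came to 0.66, Ppp1r15a to 0.70 and Rnf5 to 0.57 and were not called. Limma did not call Ppp1r15a or Rnf5.

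Other ATF4 and CHOP targets rose in 4 of 15 cases and fell in 1, beside the 7.47% and 5.64% of all genes. With the offset 2 rose and 0 fell, and 3 to 5 rose when 1 library was left out. Eif4ebp1, a repressor of translation, went from 25.3 ± 0.567 to 65.3 ± 16.7 FPKM (1.52, edgeR adjusted p = 0.000667), and Nupr1 from 9.10 to 22.3 (1.45, adjusted p = 0.00145). Vldlr, a lipoprotein receptor, fell (-1.20, adjusted p = 0.00118). Among amino acid genes the directions were mixed. Phgdh, the first enzyme of serine synthesis, rose from 45.5 ± 3.51 to 100.3 ± 17.2 FPKM (1.29, adjusted p = 0.000352), and Slc3a2, the heavy chain of amino acid exchangers, rose with it (1.11, adjusted p = 0.00053). Its cystine-exchanging partner Slc7a11 fell from 1.20 to 0.329 FPKM (-1.73, adjusted p = 0.000395), as did the transaminase Gpt2 (-1.01, adjusted p = 0.000572) and the mitochondrial folate enzyme Aldh1l2 (-1.45, adjusted p = 0.0307). With the GC and length offset 3 of the 94 genes were called, which were Fkbp2, Eif4ebp1 and Nupr1. The offset brought Phgdh to 0.65, Slc3a2 to 0.89 and Vldlr to -0.70, all not called. Slc7a11 (-0.93), Gpt2 (-0.97) and Aldh1l2 (-1.18) lost their calls with it too. Limma did not call Slc3a2, Slc7a11 or Aldh1l2, and scaling by total counts did not call Slc3a2. Without 5C-G library B, Phgdh (0.99), Vldlr (-0.95) and Nupr1 (1.00) lost their calls, as did Slc3a2, Rnf5 and Aldh1l2, which lost them without a 5C library as well. Their values nearest to 0 without 1 library were 0.92, 1.08 and -1.22. Gpt2 lost its call without library A of either group (nearest to 0 at -0.92) and Ppp1r15a without 5C library B (0.97).

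When the protein kinase D inhibitor was left out, Ddit3 showed the largest difference of any member in any comparison. Ddit3 was 6.43-fold higher in 5C-C than in 5C (log2 fold change 2.69 ± 0.25, adjusted p = 2.81e-06 in edgeR). The call held under all 11 alternatives, at 2.24 to 2.77 with a highest adjusted p of 0.000388. Trib3 was 2.73-fold higher (1.45 ± 0.22, adjusted p = 0.000153), and Ern1 was 2.04-fold lower (-1.03 ± 0.21, adjusted p = 0.00104). Of all genes, 9.65% were called higher and 10.5% lower, against 2 and 1 of the 10 members. Trib3 lost its call only with the GC and length offset, where its log2 fold change was 0.62 with an adjusted p of 0.0297. Ern1 lost its call under 6 of 11 alternatives, among them the GC and length offset (-0.75) and those without 5C library B (-0.87) and without 5C-C library B (-0.90), while its value stayed between -1.19 and -0.75.

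In 5C-C against 5C the adjusted p alone was passed by 5 members higher and 1 lower, beside 35.8% of all genes. Hspa5 (0.61 ± 0.18, edgeR adjusted p = 0.0137), Xbp1 (0.60 ± 0.17, adjusted p = 0.0116) and Chac1 (0.94 ± 0.25, adjusted p = 0.00701) passed the adjusted p but not the fold in 5C-C. Without 5C-C library A Hspa5 was at 0.28 with an adjusted p of 0.228, and without library B at 0.88 with an adjusted p of 0.00213. Hspa5 also missed the adjusted p without 5C library A (0.106) or B (0.0553), with total counts as the only scaling (0.0575) and in limma (0.145). Xbp1 missed it without 5C library A (0.0629), 5C library B (0.0824) or 5C-C library A (0.0824), and Chac1 without 5C library A (0.051). With the offset Hspa5 came to 0.96 (adjusted p = 0.000238), while Chac1 went to -0.03 and Atf4 from 0.28 to -0.49. Without 5C-C library B Chac1 was called (1.04, adjusted p = 0.0163). Atf3, at 0.41 ± 0.27 (adjusted p = 0.255), came to 0 with the offset. Hepatocyte markers were lower and macrophage markers higher in 5C-C than in 5C, and their part in these differences was not tested.

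The Ddit3 gene (GRCm39 chromosome 10, 127124268 to 127132163, plus strand) shares exon bases, in the GENCODE annotation used here, with Mars, which encodes methionyl-tRNA synthetase, on the other strand. The longest shared stretch there is 3004 bases, more than the 1716 bases the deposited tables use as the length of Ddit3, so the overlap in the gene model behind the counts is not known. The library kit does not mark strand, so reads of shared stretches cannot be told apart by strand. Mars had up to 5252 counts in a library, more than Ddit3, which had 277 to 2472. Mbd6, with up to 2282 counts, shares 69 bases on the other strand, the lncRNA Gm4189, with up to 24 counts, shares 612, and another Ddit3 entry (ENSMUSG00000116429) shares 63 on the same strand. Mars itself differed by 0.38 on the log2 scale in 5C-C against 5C (edgeR adjusted p = 0.162), 0.31 (adjusted p = 0.285) in 5C-G and 0.33 (adjusted p = 0.32) in 5C-F, and was called in no comparison. How far reads of Mars or Mbd6 entered the Ddit3 counts was not tested. Hspa5, Xbp1, Asns and Herpud1 also share exon bases with a gene on the other strand (Rabepk, Ccdc117, 1700012J15Rik and Gm15890). Rabepk and Ccdc117 had at most 1092 and 839 counts in a library, far below the members they overlap.

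**Figure D3:**
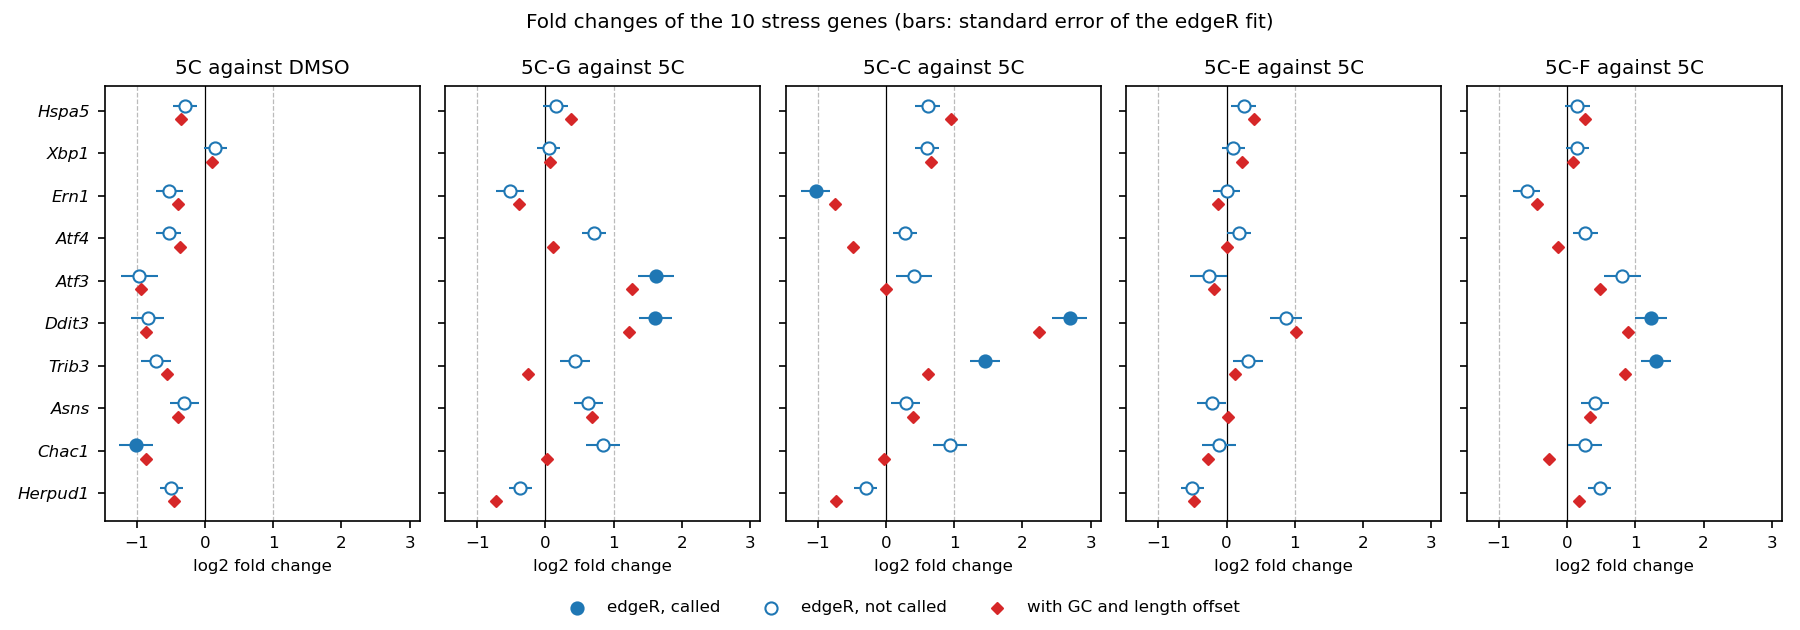
Log2 fold change (x axis) of the 10 genes (y axis) in 5C against DMSO and for 4 removals compared with 5C. Circles are edgeR values with their standard errors, filled where called, and red diamonds are the values after a GC and length offset. Ddit3 in 5C-C lies at 2.69 and stays at 2.24 with the offset, while Trib3 goes from 1.45 to 0.62.

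ER chaperones and foldases rose in 5C-C in 9 of 18 cases, and none fell. Their median log2 fold change was 0.86, beside 0 over all genes, of which 9.65% were called higher. Fkbp2 had the largest, from 9.27 ± 0.258 to 50.5 ± 19.6 FPKM (SD, n = 2, log2 fold change 2.62, edgeR adjusted p = 2.71e-05). Creld2, an ER disulfide isomerase, had the lowest adjusted p, rising from 19.4 ± 2.68 to 65.1 ± 5.44 FPKM (1.91, adjusted p = 7.52e-06). With the offset they stayed called, at 1.58 and 1.07. The other 7 called were Sdf2l1, Manf, Calr (calreticulin), Hyou1, Pdia6, P4hb (protein disulfide isomerase) and Ppib, with log2 fold changes of 1.01 to 2.06, listed after their values were seen. Their single values with the offset are not given, and the count below shows that some of these 7 lost their calls with it. The chaperones Canx, Dnajb9 and Dnajc3 had values below 0 (-0.35, -0.52 and -0.33) and did not pass the adjusted p. Several of the 9 stood near the fold threshold. The count was 4 with total counts as the only scaling, 4 in limma on log2(FPKM + 1), 5 with the GC and length offset, 6 without 5C-C library A and 10 without library B. Scaling by total counts moved the median of all genes by -0.15 in this comparison.

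**Figure D4:**
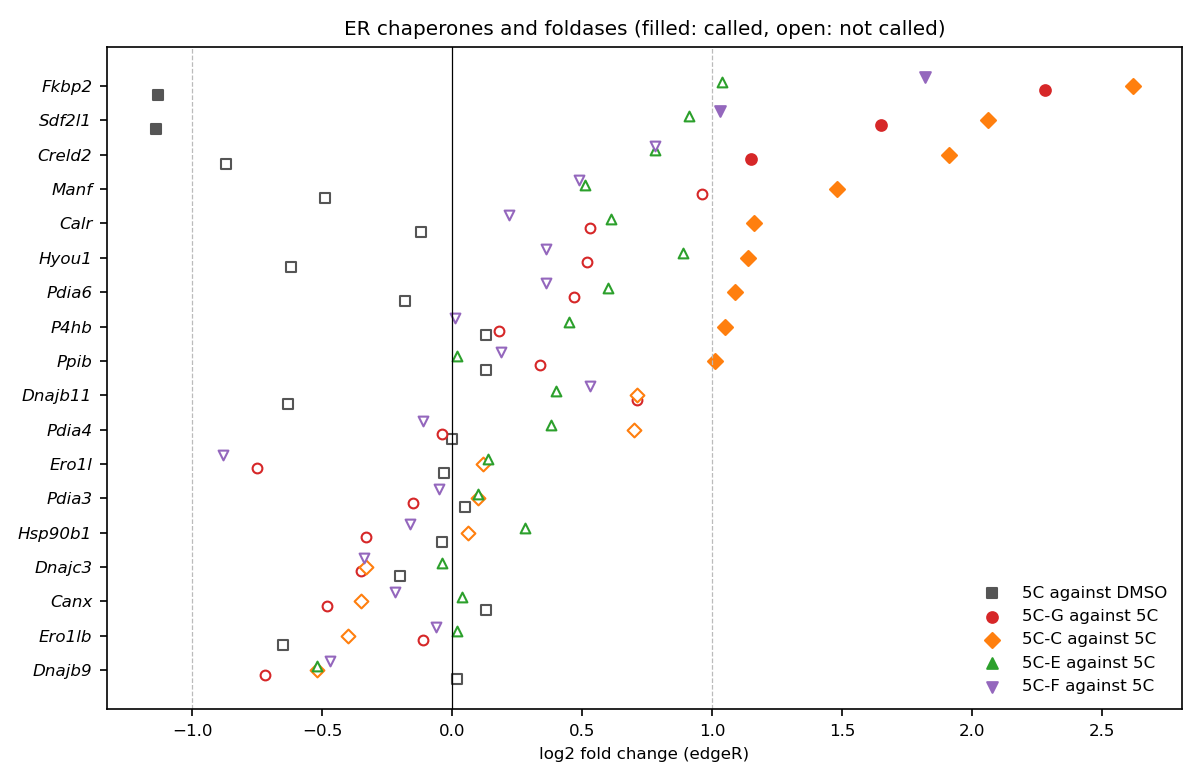
Log2 fold change (x axis, edgeR) of 18 ER chaperones and foldases (y axis) in 5 comparisons, given by marker shape and colour, filled where called. The 9 called in 5C-C against 5C (orange diamonds) lie between 1.01 and 2.62, while the 2 called in 5C against DMSO lie at -1.13 and -1.14.

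ER-associated degradation genes moved in both directions in 5C-C, with 4 of 16 called higher and 1 lower, beside 9.65% and 10.5% of all genes. Derl3, a channel component for proteins leaving the ER, rose from 0.952 ± 0.26 to 8.33 ± 5.04 FPKM (log2 fold change 3.28, edgeR adjusted p = 4.6e-05). Its log2 fold change was 2.53 to 3.78 when 1 library was left out. Edem2, which trims mannose from misfolded glycoproteins, rose (1.25, adjusted p = 0.000222), and its relative Edem3 fell from 10.1 ± 0.124 to 2.74 ± 0.429 FPKM (-1.72, adjusted p = 0.000391). Among sensors and transcription factors, Mbtps2, the protease that releases ATF6, fell (-1.25, adjusted p = 0.000654), but came to -0.07 with the GC and length offset. The phosphatase subunits split, with Ppp1r15a higher (1.22, adjusted p = 0.00235) and Ppp1r15b, the constitutive one, lower (-1.12, adjusted p = 0.000208). Both lost their calls with the offset, at 0.63 and -0.92, and limma did not call Ppp1r15a. Edem2 came to 1.00 with the offset and was not called, while Derl3 (2.41) and Edem3 (-1.06) were. Of the degradation genes 2 were called higher and 1 lower with the offset and in limma, and 4 higher and 2 lower without 5C-C library A.

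Among amino acid transporters, 3 of 9 fell in 5C-C and 0 rose, with a median of -0.54, where 10.5% of all genes fell. Without 5C-C library B 1 fell and 1 rose, and with the offset 2 fell. Slc38a2, a transporter of small neutral amino acids, went from 36.4 ± 0.241 to 13.3 ± 2.08 FPKM (-1.29, edgeR adjusted p = 0.000274), and Slc7a11 from 1.20 to 0.458 (-1.24, adjusted p = 0.00257). With the offset these came to -0.53 and -0.08 and were not called, nor was Slc7a11 in limma. Phgdh (1.05, adjusted p = 0.000969) and Pycr1, an enzyme of proline synthesis (1.17, adjusted p = 0.00168), rose, but neither was called with the offset (0.28 and 0.84) or in limma, and Phgdh was not called with total counts as the only scaling. Slc7a11 lost its call without 5C-C library B (-0.87), Phgdh without that library or 5C library A (0.96), and Pycr1 without library A of either group (0.97). Of other ATF4 and CHOP targets 4 of 15 rose, with Nupr1 at 1.82 (adjusted p = 0.00018) and Eif4ebp1 at 1.71 (adjusted p = 0.000183), both called under all 11 alternatives, and 2 of the 15 were called with the offset. Of 12 aminoacyl-tRNA synthetases, 0 were called in 5C-C against 5C by edgeR, DESeq2 or limma. An unadjusted p under 0.05 was reached by 6, where 35.8% of all genes passed even the adjusted p. In all, 20 of the 94 were called higher and 6 lower, where 9.65% of all genes were called higher and 10.5% lower, and 12 of the 94 were called in either direction with the offset.

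Leaving out ETC-1002 called 0 of the 10 members in edgeR, and 2 had an unadjusted p under 0.05. Of all genes, 0.654% were called higher and 1.31% lower, and 2.94% passed the adjusted p. Ddit3 stood 1.83-fold higher than in 5C (0.87 ± 0.24, adjusted p = 0.058), and both 5C-E libraries lay above both 5C libraries. With the GC and length offset it was called, at 1.02 with an adjusted p of 0.00784, whereas DESeq2 and limma called 0 members. Herpud1 was the other gene, at -0.50 ± 0.17 (adjusted p = 0.156). Of the 94 other pathway genes 0 were called in edgeR, 1 in DESeq2 and 0 in limma, and 26 had an unadjusted edgeR p under 0.05. Without 5C-E library A 2 were called. The chaperone list had a median of 0.39 beside 0.01 over all genes.

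Leaving out forskolin raised Trib3 and Ddit3. Trib3 was 2.46-fold higher in 5C-F than in 5C (1.30 ± 0.22, edgeR adjusted p = 0.00199), and Ddit3 2.35-fold higher (1.23 ± 0.24, adjusted p = 0.00446). Of all genes, 2.69% were called higher and 2.15% lower, against 2 and 0 of the 10 members. Both calls were lost with the GC and length offset, where Trib3 stood at 0.85 (adjusted p = 0.012) and Ddit3 at 0.90 (adjusted p = 0.0106), and both without 5C library B (adjusted p = 0.0568 and 0.0801). The Ddit3 call was also lost in limma (0.99) and without 5C-F library B (0.89, adjusted p = 0.0603). Over the alternatives, adjusted p ran from 1.56e-06 to 0.0568 for Trib3 and from 1.77e-05 to 0.0801 for Ddit3. The remaining library of 5C-F, A, held 9.53 FPKM of Ddit3, within the range of DMSO. Herpud1 (0.48 ± 0.17, adjusted p = 0.0828) and Atf3 (0.81 ± 0.27, adjusted p = 0.0635) did not pass. Hepatocyte and cholangiocyte markers were highest in this group, macrophage markers were above and stellate markers below those of 5C, and their part in these values was not tested.

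Of the 94 other pathway genes, 5 were called higher and 0 lower in 5C-F, where 2.69% of all genes were called higher and 2.15% lower. Fkbp2 reached 30.7 ± 12.2 FPKM (log2 fold change 1.82, edgeR adjusted p = 0.00186) and Sdf2l1 39.0 ± 0.951 (1.03, adjusted p = 0.014). Phgdh was at 100 ± 8.51 FPKM against 45.5 ± 3.51 in 5C (1.23, adjusted p = 0.00202). Gdf15, a secreted stress hormone, rose from 10.3 ± 2.53 to 25.8 ± 3.06 FPKM (1.43, adjusted p = 0.00186), and Eif4ebp1 from 25.3 to 53.0 (1.15, adjusted p = 0.0127). Of these, Fkbp2 held its call under all 11 alternatives, and Phgdh under all but the GC and length offset (0.84). With that offset Sdf2l1 (0.45), Eif4ebp1 (0.85) and Gdf15 (0.90) also lost their calls. In limma Sdf2l1 and Eif4ebp1 were not called, nor was Sdf2l1 with total counts as the only scaling. Sdf2l1 lost its call without any 1 of the 4 libraries as well (nearest to 0 at 0.85), Eif4ebp1 without either 5C library or 5C-F library B (0.75), and Gdf15 without 5C library B (1.22 at the nearest without 1 library). The 5 called became 3 without 5C library A, 2 without 5C library B, 3 without 5C-F library B and 7 without 5C-F library A.

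The 4 removals tested share the 5C libraries as their control, so their fold changes are not independent of each other. The log2 fold change of Ddit3 was 2.69 in 5C-C, 1.61 in 5C-G, 1.23 in 5C-F and 0.87 in 5C-E. That of Trib3 was 1.45, 0.44, 1.30 and 0.31 in the same order of groups, that of Atf3 0.41, 1.62, 0.81 and -0.26, and that of Ern1 -1.03, -0.52, -0.59 and 0. The difference between removals was not tested.

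Leaving out Salidroside gave 1 library and therefore no test. None of the 10 members lay beyond a log2 fold change of 1 against 5C, where 8.3% of all genes lay above and 10.6% below. The largest values were 0.66 for Ddit3 and 0.50 for Trib3, and the lowest was -0.33 for Ern1.

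Against DMSO, the removals say where each gene stood relative to untreated dHeps. Ern1 was called lower in 3 of them. In 5C-E it was also below DMSO, at -0.52 ± 0.20, but did not pass (edgeR adjusted p = 0.155). Its log2 fold change was -1.55 ± 0.21 in 5C-C (edgeR adjusted p = 3.39e-05), -1.12 ± 0.20 in 5C-F (adjusted p = 0.00156) and -1.04 ± 0.20 in 5C-G (adjusted p = 0.00566). The 5C-C call held under all 11 alternatives (-1.65 to -1.15), the 5C-F call under 9 and the 5C-G call under 7. With the GC and length offset Ern1 came to -0.84 in 5C-F (adjusted p = 0.00207) and -0.79 in 5C-G (adjusted p = 0.00686), outside the fold in both. In 5C-G, Ern1 lost its call without DMSO library A (-1.07, adjusted p = 0.061) and without 5C-G library B (-0.76, adjusted p = 0.0755). Ddit3 was above DMSO in 5C-C, 3.60-fold (1.85 ± 0.24, adjusted p = 2.28e-05), and this held under all 11 alternatives at 1.38 to 1.91. Passing the adjusted p above DMSO without passing the fold were Xbp1 (0.74 ± 0.17, adjusted p = 0.00268) and Trib3 (0.74 ± 0.22, adjusted p = 0.0126) in 5C-C and Ddit3 (0.78 ± 0.23, adjusted p = 0.0353) in 5C-G. With the offset Xbp1 stayed at 0.77, but Trib3 came to 0.07 (adjusted p = 0.841) and Ddit3 in 5C-G to 0.38 (adjusted p = 0.282), so neither passed the adjusted p. Trib3 also missed it without either DMSO library or 5C-C library A (0.0721 to 0.0863). Ddit3 missed it without either DMSO library (0.232 and 0.167), without 5C-G library B (0.381), with total counts as the only scaling, in the fit of only the 2 groups and in limma. Without 5C-G library A Ddit3 was called there (1.02, adjusted p = 0.00658).

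In 5C-E, Atf3 and Chac1 were below DMSO. Atf3 was 2.34-fold lower (-1.22 ± 0.27, edgeR adjusted p = 0.0065) and Chac1 2.17-fold lower (-1.12 ± 0.25, adjusted p = 0.00688). The Atf3 call was lost when any library of either group was left out (-1.24 to -1.17, adjusted p 0.0521 to 0.0776). The Chac1 call was lost without DMSO library A (-0.99, adjusted p = 0.104) or 5C-E library A (-0.78, adjusted p = 0.17). Herpud1 passed the adjusted p below DMSO in 3 groups, at -0.86 ± 0.17 in 5C-G (adjusted p = 0.00631), -0.79 ± 0.17 in 5C-C (adjusted p = 0.00178) and -0.99 ± 0.17 in 5C-E (adjusted p = 0.000921), without passing the fold. In 5C-G it missed the adjusted p without DMSO library A (0.0587) or B (0.0701). With the GC and length offset it was called in 5C-G (-1.17) and in 5C-C (-1.18). It was also called in 5C-C without library A of that group, at the threshold of fold (adjusted p = 0.000869). In 5C-F Herpud1 differed from DMSO by -0.01 ± 0.17. Chac1 in 5C-F, at -0.75 ± 0.25 (adjusted p = 0.0516), was called with the offset (-1.13, adjusted p = 0.00177).

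The calls against DMSO stood beside these shares of all genes. In 5C-G, 0 members were called higher where 3.11% of genes were, and 1 lower where 2.72% were. In 5C-C, 1 was called higher beside 10.4% of genes, and 1 lower beside 11.7%. In 5C-E, 0 were called higher beside 2.41% and 2 lower beside 3.68%. In 5C-F, 0 were called higher beside 3.18% and 1 lower beside 4.22%.

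The genes whose log2 CPM ran most like that of Ddit3 over the 13 libraries were Creld2 and Lmf1, an ER protein needed for lipase maturation, each with a Pearson r of 0.972. Gm8210 (0.965), Rnf126 (0.964) and Rpl13-ps3 (0.963) followed. For Hspa5 the closest was Hyou1, an ER chaperone that acts on BiP, at 0.902. It was followed by Gm45733 (0.888), 1500009C09Rik (0.879), Il24 (0.874) and Cacng2 (0.874). These values describe 13 libraries that share their groups, and Gm8210 and Rpl13-ps3 carry the names of a predicted gene and a ribosomal protein pseudogene, whose reads may be split with near copies.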

How the data were processed

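RNA of dHeps was taken after 16 days of culture, and libraries were made with a kit that does not mark strand. The authors sequenced paired ends, mapped them to GRCm39 and deposited raw counts per gene and, in a separate table, FPKM (fragments scaled by gene length and library size). The submitters' processing notes name Subread, featureCounts and DESeq2, and their versions and the annotation release are not given in the sources used here. Columns were assigned to groups by name, and A and B follow column order and pair nothing.

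Counts of all 13 libraries were fitted together in edgeR 4.0.16 (R 4.3.3, TMM scaling, filterByExpr with a minimum count of 10, quasi-likelihood test, group means, Benjamini-Hochberg adjustment over 19884 genes). The common biological coefficient of variation was 0.261. FPKM values are shown as deposited, with SD over 2 libraries. An exact permutation test of 2 against 2 libraries cannot go below p = 0.333 and was not used. Libraries of 1 group differed by more than counting noise in each of the 6 replicated groups, and to unequal degrees. The chi-square per degree of freedom between them was 8.01 in DMSO, 14.07 in 5C and 28.91 in 5C-E. It was 62.87 in 5C-F, 75.69 in 5C-C and 86.55 in 5C-G. A spread estimated over all groups can therefore be too wide for 5C against DMSO and too narrow for the noisier removals. Alternatives were total-count scaling, other count filters, fits of only the groups compared, DESeq2 1.42.0, limma 3.58.1 on log2(FPKM + 1), a GC and length offset, and leaving out each library. Named pathway genes are up to 2 called genes per list, direction and comparison with the lowest adjusted p. GC content is from GENCODE transcripts, and 1 of the marker genes (Clec4g) was not matched. Clec4f, Pecam1, Cdh5, Tek and Cftr were at 3 counts or fewer in some libraries. The members and lists were chosen with earlier results of these data known.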

Additional observations from a re-analysis of the deposited data

How the results depend on the processing

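The 10 genes in 9 tested comparisons gave 990 values under the alternatives, of which 900 kept their direction and their side of the thresholds, 37 lost a call, 8 gained one and 45 changed sign. The cause was not tested. None of the 45 concerned a called value. The count of members called in 5C against DMSO was 0, not 1, with total counts as the only scaling, without a count filter, with at least 10 counts in every library, with the GC and length offset, in limma, and in each fit without 1 library (0 to 0). With the offset it was 1 in 5C-C against 5C (main 3), 1 in 5C-E against 5C (main 0) and 0 in 5C-F against 5C (main 2), where limma gave 1 and leaving out 1 library 0 to 2. Against DMSO, limma called 0 in 5C-G, 0 in 5C-E and 0 in 5C-F, total counts called 1 in 5C-E, and leaving out 1 library gave 0 to 2 in 5C-G and 0 to 1 in 5C-E. Among the 94 other pathway genes, the offset gave 1, 3, 12, 0 and 3 calls and limma 1, 9, 14, 0 and 3, in this order: 5C against DMSO, then the removals G, C, E and F against 5C. Scaling by total counts moved the median of all genes by -0.14 in 5C-G, -0.15 in 5C-C and -0.11 in 5C-F against 5C.

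Signs turned as follows, in log2 fold changes. With the GC and length offset, 5C-G against 5C gave Trib3 -0.25, 5C-C against 5C gave Atf4 -0.49, Atf3 0 and Chac1 -0.03, 5C-E against 5C gave Ern1 -0.13 and Asns 0.02, and 5C-F against 5C gave Atf4 -0.14 and Chac1 -0.27. Against DMSO it gave Hspa5 0.02 and Atf4 -0.25 in 5C-G, Hspa5 0.06 in 5C-E and Asns -0.06 in 5C-F. Xbp1 in 5C-G against 5C was -0.09 with total counts, 0 without a count filter, -0.01 with at least 10 counts in every library and -0.09 in limma. Hspa5 in 5C-E against DMSO was 0.1 with total counts and 0.1 in limma. Asns in 5C-C against DMSO was 0.02 without a filter, 0.05 with at least 10 counts in every library, 0.02 in the fit of only the 2 groups and 0.02 in DESeq2. Herpud1 in 5C-F against DMSO was 0.01 under the same 4 settings. Leaving out 1 library gave -0.15 to 0.23 for Xbp1 in 5C-G, -0.12 to 0.16 for Ern1, -0.04 to 0.41 for Atf4 and -0.49 to 0.22 for Chac1 in 5C-E, all against 5C. Against DMSO it gave 0 to 0.38 for Xbp1 and -0.43 to 0.05 for Chac1 in 5C-G, 0 to 0.59 for Hspa5, -0.21 to 0.19 for Asns and -0.15 to 0.06 for Chac1 in 5C-C. It gave -0.06 to 0.01 for Hspa5 and -0.06 to 0.16 for Ddit3 in 5C-E, and -0.13 to 0.33 for Asns and -0.08 to 0.06 for Herpud1 in 5C-F.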
